A study of Mus musculus with 53 samples.

Results

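The genes described here are 10 genes of the triad, the membrane junction at which skeletal muscle couples excitation to contraction: Ryr1, Ryr2, Ryr3, Cacna1s, Cacng1, Stac3, Jsrp1, Jph1, Jph2 and Trdn. They were chosen by symbol, and all 10 were found among the 55573 genes of the bulk tables and among the 57010 genes of the single-cell matrices. The study measured mouse cerebellum in 2 conditional deletions. The Insm1 mutants carry Atoh1Cre and homozygous floxed Insm1 (Atoh1Cre; Insm1fl/fl), and their controls are Insm1fl/fl without Cre. The Tead1/2 mutants carry Atoh1Cre with homozygous floxed Tead1 and Tead2, and their controls carry the same floxed alleles without Cre, so that all groups share floxed alleles and no control carries Cre. Atoh1Cre acts in cells derived from Atoh1-expressing progenitors of the rhombic lip, chiefly the granule cell lineage, so other cerebellar cells keep the genes. Bulk RNA-seq covered cerebella at postnatal day 2 (P2), 1 animal per library, with 4 controls and 4 mutants of the Insm1 line and 3 controls and 4 mutants of the Tead1/2 line. Single-cell RNA-seq covered dissociated cerebella at postnatal day 7 (P7), 1 animal per library, with 2 controls and 3 mutants of each line. The P7 library names give the line, control or mutant, and the dissection, but not the alleles. The first library of each P7 group holds all lobules, and the others were made without lobules IX and X. Per the labels the Insm1 bulk libraries are batch 2, the Tead1/2 bulk libraries batch 3 and the P7 cells batch 1. Line and batch therefore cannot be told apart at P2, and between P2 and P7 neither can age, assay and batch.

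At the triad a transverse tubule, an infolding of the muscle cell surface, faces the sarcoplasmic reticulum, the calcium store of the cell. The voltage sensor in the tubule membrane is mechanically coupled to a ryanodine receptor, a calcium release channel of the store, so that an action potential releases calcium and starts contraction. Neurons also carry ryanodine receptors, which there open on calcium entry; Ryr2 is the main form in most of the brain, Ryr1 is known in Purkinje cells, and Ryr3 occurs in brain and in immature skeletal muscle.

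The release channels are Ryr1 (ENSMUSG00000030592.18, chr7:29003340-29125179), Ryr2 (ENSMUSG00000021313.16, chr13:11553099-12106945) and Ryr3 (ENSMUSG00000057378.15, chr2:112631354-113217405), with positions from the RefSeq annotation of GRCm38.p6. The voltage sensor is represented by Cacna1s (ENSMUSG00000026407.17, chr1:136052806-136119822), the pore subunit of the skeletal muscle L-type calcium channel, and by its gamma subunit Cacng1 (ENSMUSG00000020722.5, chr11:107703218-107716476). The adaptors are Stac3 (ENSMUSG00000040287.9, chr10:127501617-127508823), which the channel needs for coupling to Ryr1, Jsrp1 (ENSMUSG00000020216.13, chr10:80808494-80813741), a junctional reticulum protein that binds the channel, and Trdn (ENSMUSG00000019787.9, chr10:33083483-33476709), triadin, which ties the ryanodine receptor to calsequestrin inside the store. The junctophilins Jph1 (ENSMUSG00000042686.5, chr1:16942104-17097922) and Jph2 (ENSMUSG00000017817.11, chr2:163336242-163398049) hold the tubule and the store together. The files give no transcript lengths, so no level of 1 gene was set against that of another; shares and ratios of UMIs between genes are given below only to compare them across cell classes.

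Of the 10 genes, 4 have an entry in the RefSeq promoter table of GRCm38.p6, and their 250 bases before the transcription start are shown because 3 of them (Ryr1, Cacna1s and Jph2) rose together at P7 and Ryr2 did not. All are written 5′ to 3′ on the strand of the gene: Ryr1 at chr7:29125152-29125401 on the minus strand, Cacna1s at chr1:136052561-136052810 on the plus strand, Jph2 at chr2:163397994-163398243 on the minus strand and Ryr2 at chr13:12106946-12107195 on the minus strand. Capitals mark 3 motifs searched on both strands: the E-box CANNTG, which myogenic bHLH factors can bind, the MCAT element CATTCC, which TEAD factors can bind, and the MEF2 consensus.
Ryr1: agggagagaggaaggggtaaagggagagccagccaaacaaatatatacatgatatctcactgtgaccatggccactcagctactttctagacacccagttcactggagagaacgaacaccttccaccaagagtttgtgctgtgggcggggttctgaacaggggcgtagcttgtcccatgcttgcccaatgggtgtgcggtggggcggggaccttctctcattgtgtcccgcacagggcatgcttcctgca
Cacna1s: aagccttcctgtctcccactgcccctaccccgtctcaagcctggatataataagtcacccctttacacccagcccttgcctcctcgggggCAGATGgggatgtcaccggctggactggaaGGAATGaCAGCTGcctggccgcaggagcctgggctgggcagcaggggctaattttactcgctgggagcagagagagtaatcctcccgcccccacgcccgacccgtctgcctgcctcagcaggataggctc
Jph2: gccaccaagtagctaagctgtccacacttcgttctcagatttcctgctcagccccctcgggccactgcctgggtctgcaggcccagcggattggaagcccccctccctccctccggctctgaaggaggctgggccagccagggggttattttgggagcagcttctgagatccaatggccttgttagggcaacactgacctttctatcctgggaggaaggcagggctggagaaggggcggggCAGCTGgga
Ryr2: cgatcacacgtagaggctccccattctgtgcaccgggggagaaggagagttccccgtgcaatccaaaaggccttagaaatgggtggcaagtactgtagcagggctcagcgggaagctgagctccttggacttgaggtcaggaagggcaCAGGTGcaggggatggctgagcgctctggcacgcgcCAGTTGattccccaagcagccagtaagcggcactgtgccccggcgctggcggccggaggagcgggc
The Cacna1s window holds 2 E-boxes, at -160 to -155 and -123 to -118 from the start, and 1 MCAT element on the opposite strand at -130 to -125. The Jph2 window holds 1 E-box, the Ryr2 window 2 E-boxes, and the Ryr1 window none of the 3 motifs. Jph2 has 2 entries in the promoter table, and only the window of the first was read. No motif overlapped another, and the MEF2 consensus was in none of these 4 windows. Among all 32851 promoter entries, 66.2% hold an E-box in the same window, 12.6% an MCAT element and 2.92% the MEF2 consensus, so an E-box there is common. These matches describe the letters only. The start sites are those of the promoter table, which can lie slightly inside the gene spans given above.

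Bulk libraries held 28066643 to 64518751 counts. The P7 libraries kept 4588 to 10282 cells each, 76650 in all, with a median of 6657 to 9802.5 unique molecular identifiers (UMIs, counted transcripts) per cell. The targeted genes were checked first at P2: Insm1 stood at 30.8 to 71.5 counts per 1000000 (CPM) in its controls and 8.39 to 16.1 CPM in its mutants. Tead1 (33.4 to 54.2 and 38.1 to 50.7 CPM) and Tead2 (21.5 to 25.7 and 17.6 to 26.2 CPM) overlapped between Tead1/2 controls and mutants; whole-gene counts do not show whether a floxed exon is gone, so they do not check those labels. Markers of skeletal muscle, 25 genes fixed as a list, summed at P2 to 37.3 to 64.5 CPM in Insm1 controls and 198 to 327 in Insm1 mutants. They summed to 44.1 to 49.9 CPM in Tead1/2 controls and 211 to 285 in Tead1/2 mutants 1 to 3. In the library labelled Tead1/2 mutant 4 they summed to 44.2 CPM, and 3 of the 25 were at 0. Results at P2 in this line are therefore given with and without that library. It was singled out by these same data, so results without it are not independent of that choice for genes that move with the markers. At P7, 4 of 36 clusters were named skeletal muscle-like by markers that did not include the triad genes. They held 9288 cells, 7 of them in controls, and made up 14.5% to 16.2% of the cells of Insm1 mutants and 22.9% to 31.4% of those of Tead1/2 mutants.

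In Insm1 mutants at P2, Jsrp1 was the only triad gene that passed the test, with a 3.33-fold rise. Jsrp1 stood at 0.337, 0.484, 0.334 and 0.238 CPM in the 4 controls and at 1.33, 1.02, 0.866 and 1.42 CPM in the 4 mutants, all above every control (log2 fold change 1.73, SE 0.26, adjusted p = 0.016, edgeR quasi-likelihood test with Benjamini-Hochberg adjustment over 19582 genes). That is 1 of 10 triad genes, against 0.48% of all genes called higher and 0.689% called in either direction. The Jsrp1 call rests on few reads, 6 to 83 per library over the bulk libraries of both lines. It was lost without control 1 (adjusted p = 0.069), control 3 (0.056), control 4 (0.056) or mutant 4 (0.061). DESeq2, under which 1.27% of genes were called, gave Jsrp1 an adjusted p of 0.00011.

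The other parts of the voltage sensor complex lay higher in Insm1 mutants without passing that test. Cacna1s, the pore of the sensor, stood at 1.57, 0.887, 0.819 and 1.07 CPM in controls and at 1.87, 2.00, 1.83 and 2.14 CPM in mutants (log2 fold change 0.85, SE 0.21, adjusted p = 0.17). Its gamma subunit Cacng1 read 0.289, 0.215, 0.0910 and 0.209 CPM in controls and 0.679, 0.464, 0.433 and 0.536 CPM in mutants (1.38, SE 0.32, 0.12). The adaptor Stac3 read 1.08, 0.779, 1.21 and 0.983 CPM against 1.75, 1.83, 1.53 and 2.02 CPM (0.82, SE 0.18, 0.097), and DESeq2 called it (adjusted p = 0.037). For each of these genes, as for Jsrp1, no mutant overlapped a control. The same held for triadin (Trdn), at 0.0723, 0.161, 0.182 and 0.209 CPM in controls and 0.509, 0.522, 0.433 and 0.378 CPM in mutants (1.59, SE 0.32, adjusted p = 0.059). These 5 of 10 triad genes compare with 2.77% of all genes tested whose Insm1 mutants all lay above the controls. The median log2 fold change over the 10 triad genes was 0.73, and over all genes 0.01. In bulk tissue, more cells of a type and more RNA per cell cannot be told apart, nor can fewer cells and less RNA per cell where a value is lower. The summed muscle markers moved with the groups in the same way, and 22 of the 24 tested were called higher. Of the 13 other marker lists, 3 also did not overlap between the groups and were lower in mutants. The summed granule progenitor markers stood at 1462 to 1562 CPM in controls and 1270 to 1353 CPM in mutants, granule neuron markers at 2200 to 2408 and 1961 to 2170 CPM, and endothelial markers at 218 to 239 and 157 to 213 CPM. The part of these cell types in the triad values was not tested.

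The ryanodine receptors and junctophilins of the P2 Insm1 cerebella overlapped between groups. Ryr1, the skeletal muscle release channel, stood at 8.63, 7.33, 6.70 and 9.65 CPM in controls and 8.47, 11.7, 9.10 and 10.6 CPM in mutants (log2 fold change 0.31, SE 0.14, adjusted p = 0.55). Ryr2, the form that dominates in heart and brain, stood at 97.9, 83.9, 82.9 and 99.0 CPM against 68.7, 90.2, 83.4 and 91.4 CPM, and Ryr3 at 73.1, 62.0, 72.4 and 79.2 CPM against 51.7, 68.0, 71.8 and 68.0 CPM. Their adjusted p-values were 0.77 and 0.74. Jph1 ranged from 7.13 to 8.03 CPM in controls and 7.81 to 9.30 CPM in mutants. Jph2 read 0.358 to 0.672 CPM in controls and 0.666 to 0.851 CPM in mutants (0.63, SE 0.23, adjusted p = 0.44).

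**Figure D1:**
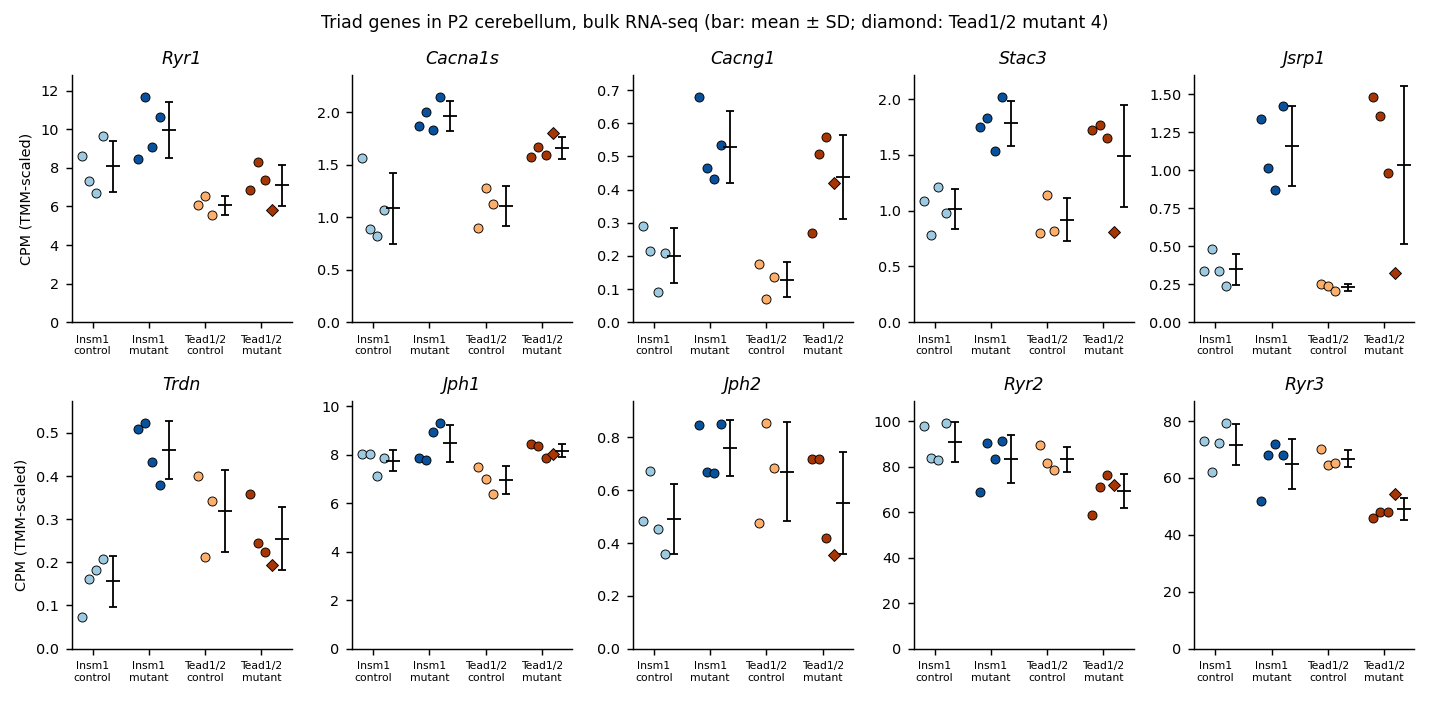
CPM of each triad gene in the bulk libraries at P2 (points, 1 per library; bars, group mean and SD), on a linear axis from 0 for each gene, for controls and mutants of both lines. The library labelled Tead1/2 mutant 4 is a diamond, and Jsrp1 lies higher in all 4 Insm1 mutants than in their controls.

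In the Tead1/2 line at P2 no triad gene passed the main test, in which 0% of the 20247 genes tested were called, although 4052 of them and 7 of the 10 triad genes had an unadjusted p under 0.05. Ryr3 stood at 70.3, 64.7 and 65.3 CPM in the 3 controls and at 45.7, 48.1, 48.0 and 54.5 CPM in the 4 mutants, below every control and with the library labelled mutant 4 the highest of them (log2 fold change -0.48, SE 0.06, adjusted p = 0.069). Without that library Ryr3 fell (-0.53, SE 0.05, adjusted p = 0.00086). Ryr2 also lay below every control in all 4 mutants, at 89.4, 81.8 and 78.6 CPM in controls and 58.7, 70.9, 76.1 and 72.0 CPM in mutants (-0.30, SE 0.07, adjusted p = 0.10, and 0.078 without mutant 4). By DESeq2, which called 5.87% of genes, both fell, with adjusted p-values of 0.021 for Ryr2 and 1.3e-07 for Ryr3. Markers of other cells moved with these groups. Summed Purkinje markers stood at 1265 to 1365 CPM in controls and 1459 to 1576 CPM in the 4 mutants, and astroglia markers at 2752 to 2961 CPM in controls and 3240 to 3431 CPM in mutants 1 to 3, with the library labelled mutant 4 (2953 CPM) among the controls. Their part in the lower Ryr2 and Ryr3 was not tested. Ryr1 stood at 6.09, 6.54 and 5.53 CPM against 6.86, 8.30, 7.38 and 5.80 CPM, and only the library labelled mutant 4 lay within the range of the controls.

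Among the sensor and adaptor genes of the Tead1/2 line, that library divided the mutants. Jsrp1 read 0.251, 0.237 and 0.205 CPM in controls, 1.48, 1.36 and 0.979 CPM in mutants 1 to 3 and 0.322 CPM in the library labelled mutant 4 (log2 fold change 2.16, SE 0.48, adjusted p = 0.095). Stac3 read 0.802, 1.14 and 0.820 CPM in controls, 1.73, 1.76 and 1.65 CPM in mutants 1 to 3 and 0.805 CPM in that library (0.67, SE 0.28, adjusted p = 0.21). Without it both rose, Jsrp1 by a log2 fold change of 2.42 (SE 0.28, adjusted p = 0.0018) and Stac3 by 0.86 (SE 0.20, adjusted p = 0.049). Its low muscle markers had singled out that library, and Jsrp1 and Stac3 were low with them. These p-values are thus not independent of the choice to leave it out. Cacna1s and Cacng1 were not divided by that library. Cacna1s read 0.902, 1.28 and 1.13 CPM in controls and 1.57, 1.67, 1.59 and 1.80 CPM in mutants (0.55, SE 0.18, adjusted p = 0.14). Cacng1 read 0.175, 0.0711 and 0.137 CPM in controls and 0.269, 0.506, 0.559 and 0.419 CPM in mutants (1.74, SE 0.41, adjusted p = 0.098). In both genes all 4 mutants exceeded the controls.

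Trdn and Jph2 did not lie higher in the Tead1/2 mutants at P2. Trdn read 0.401, 0.213 and 0.342 CPM in controls and 0.359, 0.245, 0.224 and 0.193 CPM in mutants (log2 fold change -0.31, SE 0.36, adjusted p = 0.66). Over the bulk libraries of both lines it had 3 to 21 reads per library. Jph2 read 0.476 to 0.854 CPM and 0.354 to 0.719 CPM, and Jph1, with a log2 fold change of 0.20 (SE 0.08, adjusted p = 0.22), lay between 6.39 and 7.52 CPM in controls and between 7.86 and 8.43 CPM in mutants. Counting libraries that did not overlap, 4 triad genes (Cacna1s, Cacng1, Jsrp1 and Jph1) lay higher in all 4 Tead1/2 mutants, against 13.3% of all genes, and 2 (Ryr2 and Ryr3) lay lower, against 4.07%. Without the library labelled mutant 4 these were 6 higher, against 17.7% of genes, and 2 lower, against 7.51%. In that fit 1.98% of genes were called higher, among them Jsrp1 and Stac3, and 1.22% lower, among them Ryr3. The difference between the mutant effects of both lines at P2 was called for 0 of 10 triad genes and for 0% of 20837 genes by edgeR. Of these, 3 triad genes and 1435 of all genes had an unadjusted p under 0.05, and DESeq2 called 14 of all genes. Trdn, with a Tead1/2 minus Insm1 difference of -1.90 (SE 0.47, adjusted p = 0.45), had the lowest p of the 10.

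At P7 most triad genes had far higher levels in mutants than in controls of both lines, measured over all kept cells of a library. In each line 9 of the 10 rose, all except Ryr2, and in these 9 no mutant overlapped a control, so the direction was the same in the libraries of all lobules and in those without lobules IX and X. In the Insm1 line 18.2% of the 24199 genes tested were called higher and 15.2% lower, and in the Tead1/2 line 25.9% and 22.6%. The shares of genes whose mutants all lay above their controls were 29.8% and 36.4%. The median log2 fold change of the 10 triad genes was 4.27 in Insm1 mutants and 5.62 in Tead1/2 mutants, against 0.03 and 0.06 over all genes. All 25 muscle markers were also called higher in each line, with medians of 6.0 and 7.47.

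The largest change among the 10 was that of triadin, which ties the release channel to the calcium buffer of the store. Trdn stood at 1.28 and 1.06 CPM in Insm1 controls and at 80.6, 89.8 and 76.3 CPM in Insm1 mutants, a 71.0-fold rise (log2 fold change 6.15, SE 0.25, adjusted p = 1.1e-07). In the Tead1/2 line it went from 0.935 and 0.761 CPM to 308, 242 and 181 CPM, a 282-fold rise (8.14, SE 0.28, adjusted p = 2.5e-08). In both lines every mutant lay far above every control. Ryr1, its partner channel, stood at 5.29 and 7.77 CPM in Insm1 controls and 155, 184 and 166 CPM in mutants, 26.0-fold higher (4.70, SE 0.25, adjusted p = 5.3e-07). Ryr1 read 3.35 and 3.53 CPM in Tead1/2 controls and 493, 467 and 306 CPM in mutants, 122-fold higher (6.93, SE 0.28, adjusted p = 6e-08).

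The voltage sensor rose with the channel at P7. Cacna1s went from 1.92 and 1.80 CPM to 42.6, 43.9 and 41.2 CPM in the Insm1 line (23.1-fold) and from 2.49 and 2.77 CPM to 137, 111 and 86.7 CPM in the Tead1/2 line (42.2-fold). Cacng1 went from 0.453 and 0.521 CPM to 12.6, 14.3 and 13.1 CPM (27.6-fold) and from 0.464 and 0.386 CPM to 28.3, 25.3 and 20.9 CPM (57.3-fold). Adjusted p-values for these 4 comparisons lay between 1.6e-08 and 1.4e-07. Of the adaptors, Jsrp1 stood at 0.524 and 0.365 CPM in Insm1 controls and 6.62, 7.84 and 6.99 CPM in mutants, and at 0.157 and 0.136 CPM in Tead1/2 controls and 13.9, 15.3 and 11.2 CPM in mutants, 16.2-fold and 89.7-fold higher. Stac3, which already read 4.21 to 5.32 CPM in the 4 controls, reached 18.1 to 19.4 CPM in Insm1 mutants (4.18-fold, adjusted p = 1.1e-05) and 26.8 to 41.4 CPM in Tead1/2 mutants (7.0-fold, adjusted p = 8.7e-07).

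The junctophilins and the other ryanodine receptors split by form. Jph2 read 0.339 to 0.455 CPM in the 4 controls, 10.9, 13.8 and 11.5 CPM in Insm1 mutants (34.8-fold) and 41.3, 36.0 and 26.96 CPM in Tead1/2 mutants (85.9-fold). Jph1 started from 51.5 to 60.9 CPM in controls and rose 1.68-fold, to 99.0, 101.3 and 97.8 CPM, and 2.46-fold, to 145, 133 and 106 CPM. Ryr3 read 57.1 and 69.4 CPM in Insm1 controls against 126, 150 and 146 CPM in mutants (2.24-fold, adjusted p = 0.00037), and 42.5 and 43.5 CPM in Tead1/2 controls against 276, 216 and 182 CPM in mutants (5.18-fold, adjusted p = 2.3e-06). The Ryr3 values of the Tead1/2 line were thus ordered opposite to those of the whole-tissue RNA at P2. Ryr2 read 255 and 177 CPM against 263, 239 and 187 CPM in the Insm1 line (log2 fold change 0.10, SE 0.20, adjusted p = 0.74), and 159 and 217 CPM against 174, 138 and 137 CPM in the Tead1/2 line (-0.34, SE 0.20, adjusted p = 0.18). Its mutants overlapped the controls in both lines.

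**Figure D2:**
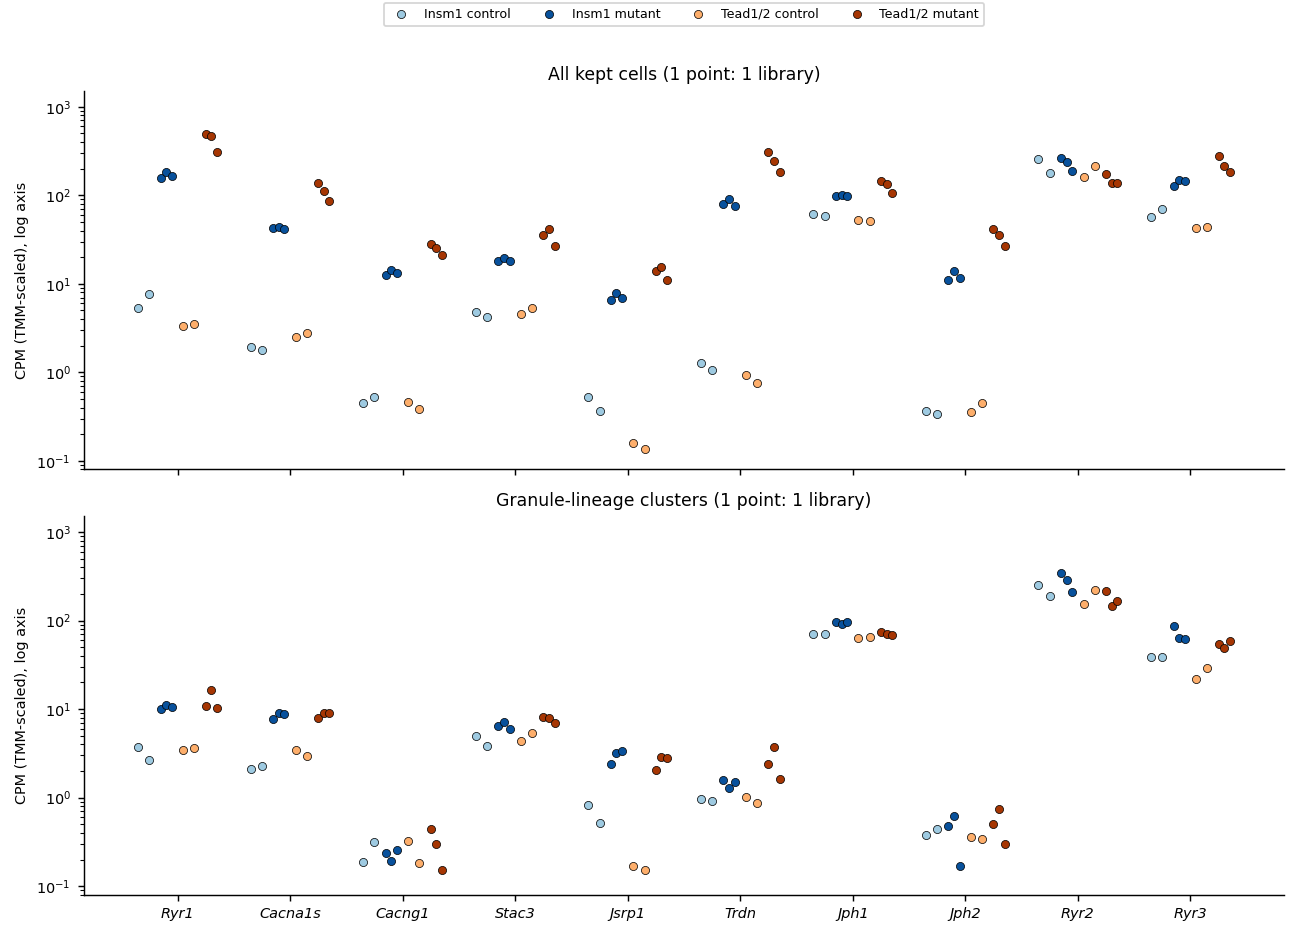
CPM of each triad gene at P7 (points, 1 per library, coloured by group), on log axes, summed over all kept cells in the upper panel and granule-lineage cells alone in the lower. All except Ryr2 lie higher in mutants over all kept cells, and for most genes the distances are smaller in the granule lineage.

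The difference between the lines was tested in the same fit, as a contrast added after the data were seen. It was called for 5 of 10 triad genes, against 3.42% of all genes. The mutant effect was larger in the Tead1/2 line for Jsrp1 (log2 difference 2.47, SE 0.31, adjusted p = 0.0066), Ryr1 (2.22, SE 0.30, 0.0091), Trdn (1.99, SE 0.33, 0.015), Ryr3 (1.21, SE 0.22, 0.022) and Cacng1 (1.05, SE 0.23, 0.040). The other 5 did not pass, with adjusted p-values from 0.064 for Jph2 to 0.42 for Ryr2. The Cacng1 difference was lost without any single library other than Tead1/2 mutant 1 or 3 (adjusted p = 0.055 to 0.16), that of Ryr3 without Insm1 control 2 (0.077), Tead1/2 control 1 (0.072) or Tead1/2 control 2 (0.088), and that of Trdn without Tead1/2 control 2 (0.073). The count was 3 without Insm1 control 2 or Tead1/2 control 1, 2 without Tead1/2 control 2, and 9 without Tead1/2 mutant 3. The controls differed between the lines as well, which enters these differences. Jsrp1 stood at 0.445 CPM (mean) in Insm1 and 0.147 CPM in Tead1/2 controls, Ryr1 at 6.53 and 3.44 CPM, Ryr3 at 63.3 and 43.0 CPM and Trdn at 1.17 and 0.848 CPM, each with no overlap of the 2 libraries of a line with those of the other, while Cacng1 overlapped. Purkinje-like cells, which carry Ryr1, numbered 181 in the Insm1 and 21 in the Tead1/2 controls; their part in the differences was not tested. The share of muscle-like cells was also higher in every Tead1/2 mutant than in every Insm1 mutant. With the muscle-like clusters left out, the differences were 1.82 (SE 0.51, adjusted p = 0.28) for Jsrp1, 1.51 (SE 0.52, 0.36) for Ryr1, 1.34 (SE 0.49, 0.38) for Trdn, 0.49 (SE 0.17, 0.36) for Ryr3 and 0.50 (SE 0.44, 0.69) for Cacng1, and 0 of 10 were called, against 0.159% of all genes; 4 of the 10 and 2659 of all 23198 genes had an unadjusted p under 0.05.

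**Figure D3:**
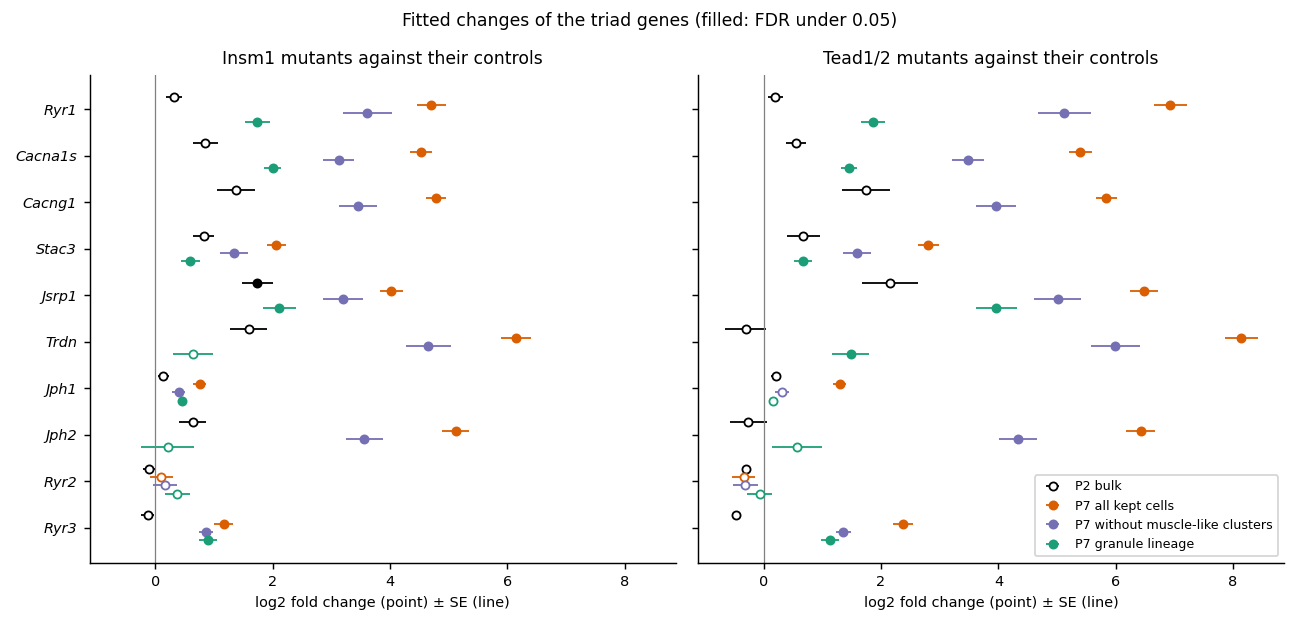
Log2 fold changes (mutant over control) of the 10 triad genes with their standard errors at P2, at P7 over all kept cells, at P7 without the muscle-like clusters and at P7 in the granule lineage, with 1 panel per line. Filled points passed the edgeR test at an adjusted p of 0.05, and the P7 changes over all cells exceed those at P2 for all genes except Ryr2.

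For 6 of the 10 triad genes, the larger part of the UMIs of every P7 mutant library was in the muscle-like clusters. These cells held 59.0% to 88.2% of all Ryr1 UMIs of a mutant library, 67.0% to 89.3% of Trdn, 65.4% to 88.0% of Cacna1s, 63.7% to 87.4% of Cacng1, 69.6% to 89.0% of Jph2 and 50.8% to 85.1% of Jsrp1. They held less of the genes that neurons also carry, namely 46.8% to 78.3% of Stac3, 37.1% to 72.2% of Jph1, 31.3% to 74.9% of Ryr3 and 18.1% to 42.4% of Ryr2. Cells with UMIs from at least 2 of the 8 muscle-type triad genes (all except Ryr2 and Ryr3), after each cell was thinned to 2000 UMIs, made up 39.9% to 61.8% of the muscle-like cells of a mutant. In control libraries the share was 0% to 1.99% in every class. Other classes of the mutants also held such cells, 9.43% to 31.8% of Purkinje-like, 4.12% to 18.3% of endothelial-like, 6.25% to 12.6% of choroid plexus- and ependyma-like and 2.05% to 10.5% of unnamed cells. In mutant granule neuron-like cells the share was 0.169% to 0.990%, and in granule progenitor-like cells 0.775% to 1.72%.

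Outside the muscle-like clusters the rise was smaller but did not vanish. In the Insm1 line 9 triad genes were still called higher, against 16.5% of all genes, and in the Tead1/2 line 8, against 23.8%. Trdn rose there by a log2 fold change of 4.65 (SE 0.38) and 5.99 (SE 0.42), and Ryr1 by 3.61 (SE 0.42) and 5.12 (SE 0.46). Muscle markers were also higher in these cells. They took 53.6 to 137 UMIs per 1000000 in every class of the controls, against 169 to 868 in mutant granule neuron-like cells, 1036 to 3630 in GABAergic interneuron-like cells, 1407 to 3270 in astroglia-like cells, 699 to 14101 in Purkinje-like cells, 3011 to 15792 in endothelial-like cells, 4128 to 12971 in choroid plexus- and ependyma-like cells and 3444 to 16172 in the unnamed clusters. The muscle-like cells as a whole held 20550 to 53158, and the muscle-like cluster 32 alone 6073 to 11019. The latter range lies within that of the unnamed clusters, which were summed per library and not read singly. Among these, clusters 7 and 25 had 17 and 11 skeletal muscle markers. Levels per class are given this way, as UMIs per 1000000 UMIs of the class.

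Barcodes below the cell filters give a measure of RNA outside kept cells. In these barcodes Ryr1 took 26.1 to 68.1 UMIs per 1000000 in controls and 169 to 470 in mutants, and Trdn 13.4 to 30.5 and 65.7 to 159. Controls thus also had more Trdn in these barcodes than in passing cells, where it took 0.811 to 1.14 UMIs per 1000000. Muscle markers took 1063 to 2833 UMIs per 1000000 in these barcodes of the controls, against 53.6 to 137 in the control classes given above. In those of the mutants they took 7430 to 22783. Where this RNA of the controls came from was not tested. For each 100 Ryr1 UMIs, these barcodes of the mutants held 33.9 to 41.2 Trdn UMIs and the muscle-like cells 52.3 to 63.2. Endothelial-like cells (40.4 to 62.9), the unnamed clusters (49.1 to 70.7), choroid plexus- and ependyma-like cells (27.2 to 49.0) and oligodendrocyte lineage-like cells (12.7 to 61.7) overlapped the muscle-like cells or the failing barcodes in this ratio, and Purkinje-like cells ranged from 0.730 to 38.1. GABAergic interneuron-like cells (5.95 to 10.1), astroglia-like cells (6.60 to 16.0), granule neuron-like cells (17.3 to 29.5) and granule progenitor-like cells (6.32 to 25.4) lay below both in every mutant library. In the GABAergic and astroglia-like cells Ryr1 itself stood at 45.7 to 113 and 40.8 to 96.4 UMIs per 1000000, against 2.41 to 3.68 and 3.57 to 4.85 in controls. The GABAergic class included cluster 19, with 4 skeletal muscle markers. That cluster held 1056 Insm1 and 1042 Tead1/2 mutant cells, against 22 and 23 control cells. The Ryr1 of both classes depends on where the clusters are drawn, as given below. The part of RNA from other cells in these Ryr1 levels was not tested.

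The ryanodine receptor forms differed between the cell classes, here given as shares of the 3 genes' UMIs within a class of a library. These shares can be compared between classes but are not molar ratios, since the genes differ in length and in where reads start. Granule neuron-like cells of the controls held 82.2% to 89.0% Ryr2, 10.4% to 17.5% Ryr3 and 0.386% to 1.08% Ryr1. Granule progenitor-like cells of the controls overlapped them in Ryr2, with 81.7% to 84.4%, but held a higher share of Ryr1, 2.81% to 3.30%. Purkinje-like cells of the controls, 181 cells in 2 libraries with enough of them, carried all 3 forms, with 14.1% to 21.6% Ryr1, 44.8% to 51.4% Ryr2 and 26.9% to 41.1% Ryr3. Their Ryr1 stood at 49.6 to 99.7 UMIs per 1000000, against 1.85 to 4.12 in control granule neuron-like cells, and they held 62.2% of all Ryr1 UMIs in Insm1 control 2 and 13.5% to 21.1% in the other 3 controls.

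The muscle-like cells of the mutants had another make-up, with 53.1% to 63.5% Ryr1, 23.7% to 29.4% Ryr3 and 8.76% to 23.1% Ryr2. In the mutants, Ryr1 made up 8.99% to 21.3% in granule progenitor-like cells, where muscle markers took 219 to 1068 UMIs per 1000000. In those of the controls Ryr1 made up 2.81% to 3.30%, with muscle markers at 71.0 to 93.2. In mutant Purkinje-like cells (3 Insm1 and 2 Tead1/2 libraries) it made up 30.7% to 50.6%; the controls with enough of these cells were both of the Insm1 line, so the Tead1/2 mutants have no control of their own here. Muscle markers took 54.5 to 66.1 UMIs per 1000000 in the control and 699 to 14101 in the mutant Purkinje-like cells, and Trdn 0.580 to 0.802 and 1.53 to 167; the part of RNA from other cells in this Ryr1 was not tested. In mutant granule neuron-like cells it made up 0.776% to 2.97%, which overlaps the controls. With clusters drawn without the muscle markers, Ryr1 made up 0.362% to 1.01% there, and its share in mutant astroglia-like cells was 1.11% to 4.19% in place of 6.40% to 17.2%. At the coarser Leiden resolution of 0.5 the astroglia-like share was 21.5% to 41.0%. In mutant GABAergic interneuron-like cells Ryr1 made up 13.7% to 39.0%, but 2.66% to 6.91% at the coarser resolution and 14.5% to 40.3% without the muscle markers. The Ryr1 of these classes thus depends on where the clusters are drawn. Classes are clusters of these same cells, so no test of class against class was made. Between the muscle-like cells and the control granule neuron-like cells, no library overlapped in any of the 3 shares.

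**Figure D4:**
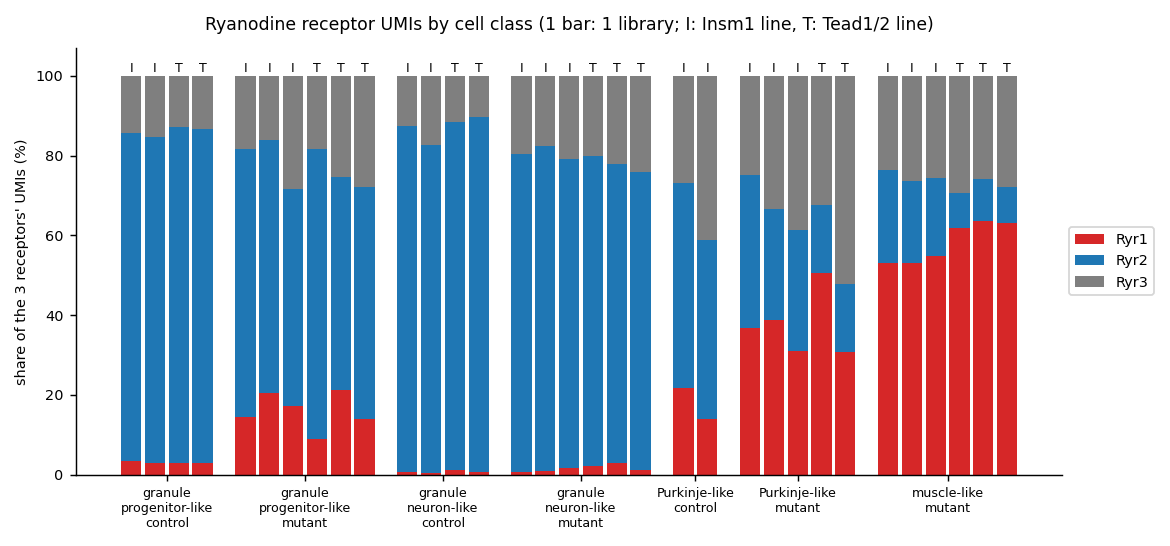
Share of Ryr1, Ryr2 and Ryr3 among their summed UMIs at P7, in percent, by cell class and genotype (1 stacked bar per library; I, Insm1 line; T, Tead1/2 line). Ryr2 takes 81.7% or more in control granule-lineage cells, and Ryr1 takes 53.1% to 63.5% in the muscle-like cells of mutants.

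The 4 muscle-like clusters fell into 2 kinds by their level of Ryr3, but not by the other ryanodine receptors. Clusters 29 (3239 mutant cells, led by Neb and Myh8) and 6 (934 mutant cells, led by Myh3, Neb and Myh8) held Ryr3 at 337 to 722 and 214 to 362 UMIs per 1000000. Clusters 32 (2764 mutant cells) and 33 (2344 mutant cells), both with Alk and Myog among their leading genes, held Ryr3 at 19.5 to 39.4 and 3.71 to 13.1 UMIs per 1000000. In cluster 33, Ryr1 alone made up 92.9% to 95.8% of the ryanodine receptor UMIs, with 0.337% to 1.07% Ryr3. In clusters 29 and 6, Ryr3 made up 26.7% to 32.7% and 27.02% to 31.2%. Cluster 32 held 53.1% to 77.6% Ryr1, which overlaps clusters 29 (53.5% to 61.4%) and 6 (40.3% to 58.7%), with 18.4% to 38.5% Ryr2 and 4.04% to 8.37% Ryr3.

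The other triad genes differed between these clusters as well. Ryr1 was high in cluster 33, at 939 to 1254 UMIs per 1000000, and in cluster 29, at 694 to 1326. It was found in 63.5% to 75.9% and 73.2% to 89.9% of their cells thinned to 2000 UMIs. In the Insm1 mutants Ryr1 was higher in cluster 33 (939 to 1057) than in cluster 29 (694 to 773). In the Tead1/2 mutants its ranges in both clusters overlapped (1049 to 1254 and 1059 to 1326). Stac3 was at 113 to 141 in cluster 33 and 49.0 to 74.7 in cluster 29, and Jsrp1 at 39.2 to 47.6 and 24.0 to 35.6. In contrast, Jph2, the junctophilin shared with heart, was at 0.875 to 3.91 in cluster 33 and 62.3 to 134 in cluster 29. Trdn was at 46.4 to 142 and 524 to 941, and Cacna1s at 55.7 to 109 and 256 to 408. Jph1 was at 212 to 243 and 232 to 326. In the Insm1 mutants its ranges in both clusters overlapped (220 to 243 in cluster 33 and 232 to 250.2 in cluster 29), and in each Tead1/2 mutant it was higher in cluster 29 (267 to 326) than in cluster 33 (212 to 232). Cluster 33 thus held Ryr1, Jph1, Stac3 and Jsrp1 with little Jph2 and Ryr3, whereas cluster 29 held all of them. Cluster 32 had the lowest range of Ryr1 among the 4, at 248 to 383, with Jph2 at 0.478 to 2.48 and Trdn at 14.0 to 48.9. The clusters differ in depth, with median UMIs per cell over the libraries of 41224 to 58734 in cluster 6, 17087 to 27294 in cluster 29, 5676 to 7277 in cluster 33 and at most 10749 in cluster 32. Both clusters with high Ryr3 are thus the deeper ones. Muscle markers took 15747 to 32846 UMIs per 1000000 in cluster 6 and 35175 to 69641 in cluster 29. They took 24325 to 36867 in cluster 33 and 6073 to 11019 in cluster 32. In each mutant library they were higher in cluster 33 than in cluster 6, so the level of Ryr3 did not follow them. The part of depth in these differences was not tested.

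**Figure D5:**
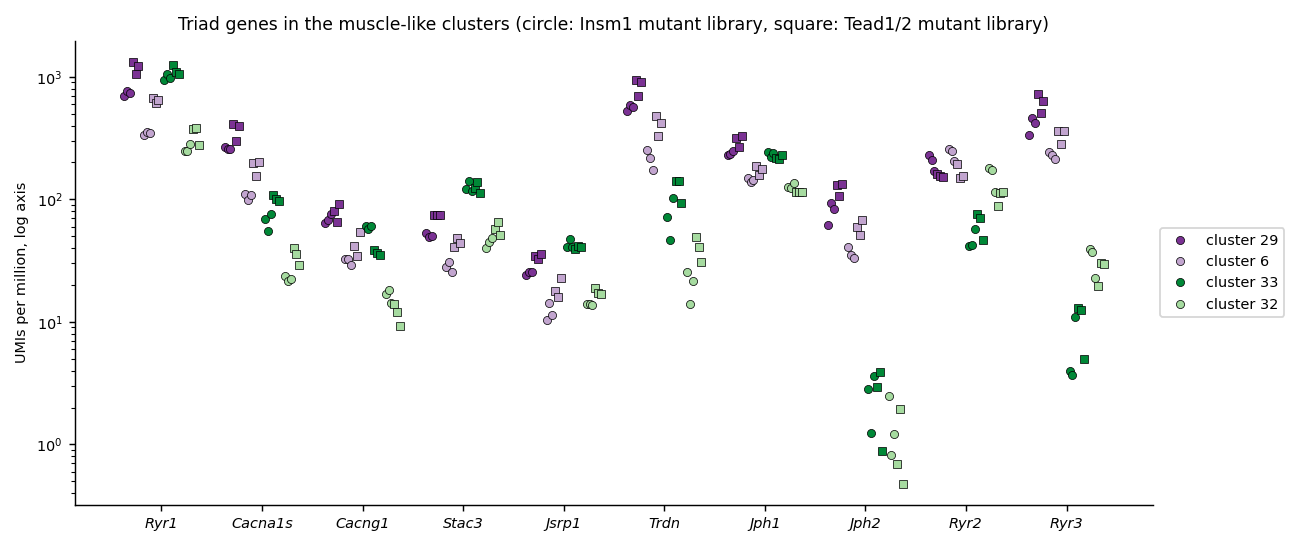
Triad gene levels in the 4 muscle-like clusters at P7, in UMIs per 1000000 on a log axis (points, 1 per mutant library; circles, Insm1; squares, Tead1/2). Ryr3, Jph2 and Trdn are lower in clusters 32 and 33 than in clusters 6 and 29. Ryr1 of cluster 33 lies above that of cluster 29 in the Insm1 mutants, and its ranges in both clusters overlap in the Tead1/2 mutants.

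In granule-lineage cells, the clusters named granule progenitor-like or granule neuron-like, 9 triad genes were tested at P7 and 6 rose in each line. The shares of all 16841 genes called higher were 12% in the Insm1 line and 12.9% in the Tead1/2 line, and those called lower 7.67% and 8.56%. Cacna1s read 2.11 and 2.28 CPM in Insm1 controls and 7.78, 9.09 and 8.79 CPM in mutants (log2 fold change 2.00, SE 0.14, adjusted p = 1.6e-06), and 3.45 and 2.99 CPM in Tead1/2 controls and 8.02, 8.98 and 9.08 CPM in mutants (1.45, SE 0.13, adjusted p = 8.5e-06). Ryr1 read 3.71 and 2.67 CPM against 9.96, 11.2 and 10.6 CPM (1.74, SE 0.21, adjusted p = 9.4e-05), and 3.43 and 3.60 CPM against 10.9, 16.4 and 10.3 CPM (1.86, SE 0.20, adjusted p = 3.6e-05). Jsrp1 read 0.828 and 0.519 CPM against 2.37, 3.24 and 3.38 CPM (2.11, SE 0.28, adjusted p = 0.00017), and 0.171 and 0.154 CPM against 2.06, 2.91 and 2.78 CPM (3.96, SE 0.35, adjusted p = 6e-06). Mutants of these 3 genes all exceeded their controls.

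Ryr3 also rose in the granule lineage, from 38.4 and 39.2 CPM to 86.0, 63.2 and 61.5 CPM in the Insm1 line (log2 fold change 0.90, SE 0.15, adjusted p = 0.001) and from 21.9 and 28.8 CPM to 55.1, 48.9 and 58.7 CPM in the Tead1/2 line (1.12, SE 0.15, adjusted p = 0.00019). With clusters drawn at the coarser Leiden resolution of 0.5 the Ryr3 values were -0.28 (adjusted p = 0.39) and 0.47 (0.15), so this call depends on where the granule clusters are drawn. At that resolution 4 of 8 triad genes tested rose and 1 (Ryr2) fell in the Insm1 line, against 11.9% of all genes called higher and 11.3% lower. In the Tead1/2 line 5 of 8 rose, against 11.6% of all genes. Nothing is read from the count of falls. Stac3 rose slightly, by 0.59 (adjusted p = 0.021) and 0.67 (0.008). The Stac3 call was lost without Insm1 control 2 (adjusted p = 0.19) or Insm1 mutant 2 (0.086), and in the other line without Tead1/2 control 1 (0.12). Jph1 rose in the Insm1 line (0.46, SE 0.06, adjusted p = 0.00019; at the coarser resolution 0.19, adjusted p = 0.074) and was not called in the Tead1/2 line (0.16, SE 0.06, adjusted p = 0.089). Trdn rose in the Tead1/2 line, from 1.01 and 0.863 CPM to 2.40, 3.75 and 1.61 CPM (1.48, SE 0.31, adjusted p = 0.0042), and read 0.970 and 0.918 CPM against 1.57, 1.29 and 1.52 CPM in the Insm1 line (0.64, SE 0.34, adjusted p = 0.23). The difference between lines was called for 0 of 9 triad genes, 3 of them with an unadjusted p under 0.05, against 1.08% of all genes.

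Ryr2 was not called in the granule lineage, at 254 and 191 CPM against 343, 290 and 211 CPM (log2 fold change 0.37, SE 0.21, adjusted p = 0.27) and 155 and 221 CPM against 214, 148 and 166 CPM (-0.07, SE 0.21, adjusted p = 0.86). At the coarser resolution its Insm1 value turned to -1.23 (SE 0.39, adjusted p = 0.04), a fall. Jph2 stood at 0.169 to 0.740 CPM over all 10 libraries and was not called, and Cacng1, with 3 to 15 UMIs per library, was below the filter. All mutants lay above their controls for 7 of 10 triad genes in each line, against 21.9% and 22.5% of all genes.

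These granule-lineage values mix cells whose clusters differ by genotype. Clusters 9, 10, 11, 12 and 14 held 18831 control and 3909 mutant cells, and clusters 13, 15, 16 and 18 held 113 control and 9789 mutant cells. Unnamed clusters 35 (2263 cells, with 0 from controls, 8 granule neuron markers) and 8 (2505 cells, mostly from controls, 6 granule progenitor markers) are outside these values, because markers of another class led them. Muscle markers were called higher in the granule lineage too, for 10 of 23 tested in the Insm1 line and 22 of 23 in the Tead1/2 line. For each 100 Ryr1 UMIs, mutant granule neuron-like cells held 39.5 to 120 Cacna1s UMIs and granule progenitor-like cells 58.0 to 98.2, against 24.6 to 29.8 in muscle-like cells and 20.6 to 24.4 in the failing barcodes. The Cacna1s to Ryr1 ratio of the granule lineage thus lay above those of the muscle-like cells and of the failing barcodes in every mutant library. In granule-lineage cells of the Insm1 controls Cacna1s stood at 2.11 to 2.28 CPM beside Ryr1 at 2.67 to 3.71 CPM. In those of the Tead1/2 controls Cacna1s stood at 2.99 to 3.45 CPM beside Ryr1 at 3.43 to 3.60 CPM. This higher ratio was thus not particular to the mutants. The part of RNA from other cells in these values was not tested. By kind of cell, Cacna1s stood at 1.24 to 2.40 UMIs per 1000000 in control and 5.02 to 7.27 in mutant granule neuron-like cells, and at 2.13 to 3.72 and 10.1 to 11.7 in granule progenitor-like cells. Ryr3 of the progenitor-like cells overlapped between genotypes, at 14.3 to 16.8 and 12.01 to 25.9, whereas that of the granule neuron-like cells did not, at 43.8 to 83.9 and 90.9 to 148.

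The list of 28 other genes of excitation-contraction coupling and neuronal calcium release was read in the same way. In the Insm1 line at P2, 3 of 26 tested rose, against 0.48% of all genes called higher, and DESeq2 called 5 of 28 higher, against 1.27% of all genes called in either direction. By edgeR these were Hrc, a calcium-binding protein of the store (log2 fold change 2.67, SE 0.34), Sln, an inhibitor of the calcium pump (2.88, SE 0.45), and Cav3, the muscle caveolin (4.06, SE 0.42). The Sln call was lost without control 1, 3 or 4 or mutant 4 (adjusted p = 0.057 to 0.078). In the Tead1/2 line none of 27 was called, 14 of them with an unadjusted p under 0.05, while without the library labelled mutant 4, Sln (3.14), Cav3 (3.27), the calcium pump Atp2a1 (2.08), Hrc (1.18) and Casq2 (0.96) rose and Cacna2d1 fell (-0.51). These 5 and 1 of 27 compare with 1.98% of all genes called higher and 1.22% lower in that test. DESeq2 without that library called 2 of 24 higher (Casq2 and Sypl2), against 4.16% of all genes, and 3 lower (Cacnb1, Bin1 and Cacna2d1), against 2.58%. Of the genes known from neurons, none was called by edgeR in the Insm1 line, and edgeR called no gene at all in the Tead1/2 line with all libraries. Of the other coupling genes, DESeq2 called Cacnb1 (-0.28, adjusted p = 0.017) and Bin1 (-0.20, adjusted p = 0.014) lower in the Tead1/2 line. Jph3 and Jph4, the neuronal junctophilins, had log2 fold changes of -0.09 and -0.23 in the Insm1 line and 0.11 and -0.13 in the Tead1/2 line. Itpr1, the inositol trisphosphate receptor of Purkinje cells, had 0.01 and -0.10, and Cacna1c, the L-type channel of heart and brain, 0.00 and -0.25. Casq1, the calsequestrin of fast muscle, had -0.35 and -0.07.

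Over all kept cells at P7, 19 of the 28 rose in each line, and 4 fell in the Insm1 line and 5 in the Tead1/2 line. Of all genes, 18.2% and 25.9% were called higher and 15.2% and 22.6% lower, so the falls were no more frequent in the list than among all genes and are given as single values only. The largest rises of the list in both lines were those of 6 skeletal muscle partners. The log2 fold changes in the Insm1 and Tead1/2 line were 5.97 and 7.64 for Atp2a1, 5.87 and 7.01 for Cav3, 5.81 and 7.38 for Hrc, 5.72 and 7.48 for Sln, 5.74 and 7.04 for the gamma subunit Cacng6 and 4.82 and 6.71 for Casq2. Casq1 (3.18 and 5.20), Dysf (3.31 and 4.18), Srl (2.78 and 3.95), Tmem38a (1.44 and 2.36), Tmem38b (1.12 and 1.87), Stac2 (1.23 and 1.302), Cacnb1 (0.73 and 1.28), Bin1 (0.66 and 1.06), Itpr3 (0.83 and 0.75), Atp2a2 (0.46 and 0.77) and Itpr2 (0.42 and 0.59) also rose. Of the neuronal forms, Jph3 rose in both lines (1.17 and 0.42), whereas Jph4 (0.21 and -0.25) and Itpr1 (0.59 and 0.10) were not called. The Insm1 value of Itpr1 rested on the controls, at 0.12 without control 1 and 1.24 without control 2 (called, adjusted p = 0.013). Asph (0.26) rose in the Insm1 line and Stac (2.08) in the Tead1/2 line. The Insm1 value of Stac (0.95, not called) was likewise 0.24 without control 1 and 2.34 without control 2 (called, adjusted p = 0.0032). The Stac2 value of the Insm1 line was 0.68 without control 1 (not called, adjusted p = 0.21) and 2.05 without control 2, and its call was also lost without mutant 2 (0.076) or 3 (0.10); in the Tead1/2 line it was lost without control 1, control 2, mutant 1 or mutant 2 (0.063 to 0.13). In the Tead1/2 line the calls of Stac (0.070 and 0.062 without control 1 and 2) and Jph3 (0.13 without control 1) also rested on single controls. Cacna2d1 (-0.75 and -0.65), Sypl2 (-0.64 and -0.63), Fkbp1b (-0.54 and -0.62) and Cacna1d (-0.31 and -0.56) fell in both lines, and Cacna1c fell in the Tead1/2 line (-0.35, and 0.00 in the Insm1 line). Without Insm1 control 1 the calls of Cacna2d1 (0.077), Fkbp1b (0.15) and Sypl2 (0.051) were lost, and that of Fkbp1b also without Insm1 mutant 2 (0.051) or 3 (0.070). Cacna2d1 was lost without Tead1/2 control 1 (0.057) or 2 (0.051), Fkbp1b without Tead1/2 control 2 (0.086), and Cacna1c without Tead1/2 control 2 (0.18), mutant 2 (0.054) or mutant 3 (0.059).

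In the granule lineage 9 of 26 tested rose and 3 fell in the Insm1 line, and 11 rose and 3 fell in the Tead1/2 line. Of all genes, 12% and 12.9% were called higher and 7.67% and 8.56% lower. These counts depend on the clusters. At the coarser resolution 5 of 24 rose and 5 fell in the Insm1 line, against 11.9% of all genes called higher and 11.3% lower, and 6 rose and 5 fell in the Tead1/2 line, against 11.6% and 9.1%. Nothing is read from the counts of falls. The genes called higher in both were Sln (3.43 and 3.32), Itpr3 (2.06 and 1.55), Jph3 (1.99 and 1.08), Cav3 (1.75 and 1.76), Stac (1.24 and 1.91) and Cacna1c (0.37 and 0.34). Casq2 (1.302), Asph (0.29) and Atp2a2 (0.23) were called higher in the Insm1 line, and Cacng6 (2.36), Dysf (1.95), Hrc (1.84), Atp2a1 (1.59) and Tmem38a (0.55) in the Tead1/2 line. Cacna1d (-0.68 and -0.79), Bin1 (-0.54 and -0.57) and Sypl2 (-0.47 and -0.96) fell in both. Jph4 (0.47 and 0.27) and Itpr1 (0.21 and 0.04) were not called, although at the coarser resolution Jph4 fell in both lines (-1.40 and -0.81) and Itpr1 rose in the Insm1 line (0.48), nor was Atp2a1 in the Insm1 line (0.45). Of the rises, those of Sln and Jph3 in the Insm1 line and of Sln, Stac and Atp2a1 in the Tead1/2 line were called whichever library was left out. The log2 fold change of Sln was 2.58 without Tead1/2 mutant 2, and that of Itpr3 in the Insm1 line 3.48 without control 1 and 1.54 without control 2 (not called, adjusted p = 0.065). In the Insm1 line Cav3 (0.054 and 0.094 without control 1 and 2), Stac (0.12 without control 1), Casq2 (0.10 to 0.18 without control 1, control 2 or mutant 2), Asph (0.058 and 0.075 without control 1 and 2), Atp2a2 (0.24 without control 2, 0.076 without mutant 3) and Cacna1c (0.10 to 0.35 without control 2, mutant 1 or mutant 2) lost their call. In the Tead1/2 line, control 1 decided the calls of Cacng6 (0.11 without it), Cav3 (0.092), Hrc (0.054) and Jph3 (0.062), and control 2 that of Tmem38a (0.082). Dysf was 1.54 without control 1 (0.26), 2.37 without control 2 (0.078) and 0.97 without mutant 1 (0.10), none of them called. Itpr3 lost its call without control 1, control 2, mutant 1 or mutant 3 (0.085 to 0.27), and Cacna1c without control 1, control 2, mutant 1 or mutant 2 (0.077 to 0.33). The rise of Cacna1c turned to a fall in the Insm1 line at the coarser resolution (-0.53, adjusted p = 0.021) and did not hold with clusters drawn without the muscle markers (-0.30 and -0.06, not called).

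The genes whose pattern over the 15 bulk libraries was most like that of a triad gene were found as the smallest root mean square difference of centred log2 CPM among 16367 genes. For Ryr2 they were Sv2a (0.0632), Snap91 (0.0661) and Zfp318 (0.0663), where the median over all genes was 0.266. For Ryr3 they were Unc79 (0.0797), Fam20c (0.0886) and Tspoap1 (0.0953), with a median of 0.308. For Ryr1 they were Dtx4 (0.116), Mical2 (0.129) and Lrp8 (0.134), with a median of 0.355, and for Cacna1s Ntf3 (0.244), Vwa2 (0.257) and Col28a1 (0.270), with a median of 0.458. The libraries share line, batch and genotype, so these distances describe the pattern only.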

How the data were processed

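Bulk tables hold expected counts per gene, which the authors deposited after RSEM per the labels, and which were rounded to whole numbers here (6.84% to 8.77% of values were not whole). The P7 matrices hold UMI counts per gene and barcode (Parse Evercode), which the authors deposited for all barcodes. The submitters' processing notes name Trim Galore 0.6.3, STAR 2.7.9a, RSEM 1.3.3 and Seurat 4.4.0 and the builds GRCm38.p6 and mm10, without a role for each; the gene tables of the P7 matrices name a GRCm39 build. The sources used here do not give the annotation or the strand setting of the counting, so reads of overlapping genes on opposite strands may not be told apart.

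Barcodes with at least 1000 UMIs, 500 genes and at most 15% mitochondrial UMIs passed (79838). No library shared a barcode with another. The automatic doublet threshold of Scrublet marked 0% to 55.3% of a library and was not used; instead the highest 4% of scores in each library were removed (191 to 428 cells). The 76650 cells kept were clustered without the triad genes (scanpy 1.11.5, 2000 variable genes, 30 components, 15 neighbours, Leiden resolution 1). A cluster was named X-like from at least 3 markers of a list that were detected in over 10% of its cells and stood 1.5 times above the mean over clusters. It stayed unnamed with fewer (2 clusters), on a tie of lists (1), or where another list had more markers among its 10 leading genes (5). Of 36 clusters, 28 were named and 8, with 11743 cells, were not; among these, clusters 7 (766 cells, led by microglial genes) and 25 (2578 cells, led by fibroblast genes) had 17 and 11 skeletal muscle markers. Shares of cells with a UMI used cells thinned to 2000 UMIs, leaving out 1343 shallower cells.

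Counts were tested with edgeR 4.0.16 (R 4.3.3) quasi-likelihood fits with TMM scaling and filterByExpr on the whole gene table, with Benjamini-Hochberg adjustment over all genes tested and calls at 0.05. Each bulk line had its own fit. P7 UMIs were summed per library, since cells are not replicates, and the 4 groups shared 1 fit. The printed CPM are TMM-scaled. Levels per cell class are UMIs per 1000000 in that class, without TMM scaling. Their ranges are over libraries, which differ in animal, and some in dissection, as well as by counting error. DESeq2 1.42.0, other scaling, no filter, each library left out, a block (replicate number at P2, dissection at P7), other doublet rules and other clusterings were the alternatives. The fits were tested on simulated data. Replicates of a group were no copies of each other, with a chi-square over genes of 10.0 to 82.0 per degree of freedom. Same-numbered animals did not deviate together (correlations -0.131 to 0.227 at P2 and -0.122 to 0.0224 at P7), so the numbers were not taken as pairs.

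The triad genes, the 28 other coupling genes and the 25 muscle markers were chosen with earlier results of these data known. All triad genes were named in every comparison; of the other genes, those called and Jph3, Jph4, Itpr1, Cacna1c, Atp2a1 and Casq1, and for likeness the 3 nearest genes whose mean reached 1 CPM. The chromatin samples of the series were not analysed here.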

Additional observations from a re-analysis of the deposited data

Results flagged for a closer look

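In the library labelled Tead1/2 mutant 4 at P2, Stac3 stood at 0.805 CPM, against 1.65 to 1.76 CPM in the other 3 mutants. Its gap to the nearest library was 0.8815 of the range of the group, past Dixon's 95% critical value for 4 samples. Of 30 groups of 4 libraries examined for the triad genes, this was the only 1 past it, and chance flags about 1 in 20. The 25 muscle markers of that library summed to 44.2 CPM, against 211 to 285 CPM in the other 3 mutants. Their part in the Stac3 value was not tested.

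At P7 over all kept cells, the mutant effect of 5 triad genes was larger in the Tead1/2 line than in the Insm1 line by the edgeR contrast of both effects. The log2 differences were 2.47 for Jsrp1, 2.22 for Ryr1, 1.99 for Trdn, 1.21 for Ryr3 and 1.05 for Cacng1. That contrast was added after the data were seen, and the calls of Cacng1, Ryr3 and Trdn were each lost without some single libraries. The controls differed between the lines as well. Jsrp1 stood at 0.445 CPM (mean) in Insm1 and 0.147 CPM in Tead1/2 controls, and Ryr1 at 6.53 and 3.44 CPM. The mutant libraries of the Tead1/2 line also held more muscle-like cells, 22.9% to 31.4% against 14.5% to 16.2%. With those clusters left out, the differences were 1.82 (SE 0.51) for Jsrp1, 1.51 (SE 0.52) for Ryr1, 1.34 (SE 0.49) for Trdn, 0.49 (SE 0.17) for Ryr3 and 0.50 (SE 0.44) for Cacng1, and none of the 10 was called.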

How the results depend on the processing

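At P7 the count of triad genes called over all kept cells was 9 in each line, also when any single library was left out. Of all genes, 5531 to 7471 were then called in the Insm1 line and 8609 to 11588 in the Tead1/2 line. In the granule lineage the 6 called, all higher, were 5 to 6 in each line without single libraries, against 2153 to 3139 and 2284 to 4094 of all genes. They were 7 in the Insm1 line with no filter, against 3920 of all genes. At Leiden resolution 0.5 they were 4 higher and 1 lower in the Insm1 line, against 11.9% and 11.3% of all genes. In the Tead1/2 line they were 5 higher at that resolution, against 11.6% of all genes. Over all alternatives, the direction and call of single triad genes stayed the same in 1058 fits, were lost in 33, were gained in 33 and turned in 18. At P2 the Insm1 count of 1 was 2 with DESeq2 (1.27% of all genes) and 0 to 1 without single libraries (64 to 132 of all genes). The P2 Tead1/2 count of 0 was 2 with DESeq2 (1005 of 17123 genes) and 4 with no filter on low counts (1287 of all genes). It was 3 with DESeq2 without the library labelled mutant 4 (1198 of 17781 genes), and 0 to 3 without single libraries (0 to 646 of all genes). The count of differences between lines at P7 was 5 over all kept cells, against 827 of 24199 genes. It was 9 with DESeq2 (2043 of 17984 genes), 8 with no filter (1060 of all genes) and 3 with all barcodes (631 of all genes). Outside the muscle-like clusters it was 0 (37 of 23198 genes), and without single libraries 2 to 9 (90 to 1211 of all genes). In the granule lineage, 0 (182 of 16841 genes) became 2 with no filter (714 of all genes). These member counts thus moved with those over all genes. The cause was not tested. The labels do not state that replicate numbers pair animals, and the numbers were not taken as pairs. With the replicate block, the P2 count was 0 in the Insm1 line, against 64 of all genes. In the Tead1/2 line it was 2 (Ryr3 and Jsrp1), against 236 of all genes. No Tead1/2 control has the number 4, so the block there takes up the library labelled mutant 4. It is thus no separate alternative to leaving that library out. With the block of dissection, the count of P7 differences between lines was 4, against 798 of all genes.

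Over all genes, the P2 Insm1 count of 135 was 307 with DESeq2, 212 with no filter and 64 to 132 without single libraries; that of the Tead1/2 line, 0, was 1005 with DESeq2, 1287 with no filter, 236 with the block and 0 to 646 without single libraries. The P2 difference between lines, 0, was 14 with DESeq2 and 11 with no filter. The P7 Insm1 count of 8078 was 5362 with the automatic doublet threshold. Granule-lineage counts of 3318 and 3612 fell to 2153 and 2284 without single controls, and were 3748 and 3341 at Leiden resolution 0.5. The P7 difference between lines, 827, was 2043 with DESeq2, 37 outside the muscle-like clusters and 90 to 1211 without single libraries; that of the granule lineage, 182, was 373 with DESeq2, 714 with no filter, 120 with clusters drawn without muscle markers and 50 to 334 without single libraries.

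Values that changed sign were mostly near 0. At Leiden resolution 0.5, granule-lineage values turned to -1.23 for Ryr2, -0.28 for Ryr3, -0.53 for Cacna1c and -1.40 for Jph4 in the Insm1 line, to -0.81 for Jph4 in the Tead1/2 line, and to 0.29 for Ryr2 and -0.055 for Stac3 in the difference between lines. With clusters drawn without muscle markers, they turned to -0.30 and -0.065 for Cacna1c, to -0.0905 and -0.19 for Jph4, and to -0.0123 for the Stac3 difference. Over all P7 cells, Cacna1c of the Insm1 line turned to -0.017 with DESeq2, -0.0077 with all barcodes and -0.0137 with no filter, and Itpr1 of the Tead1/2 line to -0.0295 with the automatic doublet threshold. Outside the muscle-like clusters, Jph4 of the Tead1/2 line turned to 0.054 and the Jph1 difference to -0.079, and with no filter the P2 Insm1 value of Itpr1 to -0.0099. Without single libraries, P2 values ranged from -0.14 to 0.17 for Cacna1c and -0.0535 to 0.057 for Itpr1 in the Insm1 line, from -0.15 to 0.0043 for Casq1 in the Tead1/2 line and from -0.26 to 0.0403 for the Stac3 difference. P7 values ranged over all cells of the Insm1 line from -0.15 to 0.37 for Ryr2 and -0.18 to 0.18 for Cacna1c, and in the granule lineage from -0.13 to 0.45 for Jph2 in the Insm1 line and -0.31 to 0.19 for Ryr2 in the Tead1/2 line. The granule-lineage differences between lines ranged from -0.16 to 0.32 for Ryr1, -0.16 to 0.25 for Stac3 and -0.0155 to 0.70 for Jph2.

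At P2, depth limits Cacng1, Trdn, Jsrp1 and Jph2, with 3 to 83 reads per library; DESeq2 gave them no adjusted p in the Tead1/2 line. Cacng1 and Casq1 were below the filter in the granule lineage, and Jph2 at Leiden resolution 0.5.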
